A study of Mus musculus with 10 samples.

Results

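In *Setd1b* cKO oocytes 751 stretches of the autosomes gained H3K4me3 over at least 3 directly adjacent windows of 5 kb. These gain domains were chosen on the measured values themselves. A window qualified when the lowest of the 3 cKO libraries exceeded the highest of the 3 WT libraries by at least 0.5 normalized RPKM, and a domain was an unbroken run of such windows on chromosomes 1 to 19. The gain domains held 2829 windows, which is 14.1 Mb or 0.575% of the 492344 autosomal windows. The windows that qualified numbered 14165 (2.88% of autosomal windows). The same rule with the genotypes exchanged, referred to here as loss domains, gave 471 runs with 1714 windows, from 13303 qualifying windows (2.70%). The order of these numbers rested on single libraries: without cKO replicate 1 the rule gave 2117 gain and 2504 loss domains, and without WT replicate 2 it gave 1122 and 1570.

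H3K4me3 was profiled by ULI-nChIP-seq, a native ChIP-seq for few cells in which chromatin is cut with micrococcal nuclease and not crosslinked. GV oocytes, which are fully grown and still arrested in meiotic prophase, came from ovaries of females aged 21 days, with about 200 oocytes pooled per sample. The cKO females were homozygous for floxed *Setd1b* and carried *Gdf9*-Cre, which excises in oocytes from early folliculogenesis onwards, and the WT females carried floxed *Setd1b* and, as labelled, no Cre. The methods of the study also allow WT females with *Gdf9*-Cre and 1 intact allele, and both lines were kept on the C57BL/6OlaHsd background. The groups thus share the floxed allele, and whether any WT pool held Cre carriers is not given in the sources used here. The H3K4me3 libraries were replicates 1, 3 and 4 of the cKO and replicates 1, 2 and 4 of the WT, and values are listed in that order. Input, which is chromatin sequenced with no precipitation, was given for replicates 1 and 4 of both genotypes. The H3K4me3 libraries held 10856015 to 32775874 reads in windows and the input libraries 20756128 to 26566505 reads. Values are enrichment-normalized RPKM, a linear scale on which the authors set a low and a high percentile equal in all libraries. Because the ChIP measures a population of oocytes, more cells with the mark and more mark per cell cannot be told apart.

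H3K4me3 is placed by the SETD1 and MLL methyltransferases, and it marks active promoters in most cells. In growing oocytes it also spreads over broad regions without transcription. CXXC domains in these complexes bind CpG dinucleotides that are not methylated. H3K4me3 in turn hinders binding of the DNA methyltransferase DNMT3A and of DNMT3L, so that the mark and DNA methylation tend to exclude each other. In oocytes DNA methylation is gained mainly over transcribed gene bodies.

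At the TSS window of *Setd1b*, the deleted gene, the cKO libraries had 4.50, 4.66 and 3.93 normalized RPKM, and the WT libraries had 7.56, 7.65 and 6.12. All cKO libraries were lower there, although H3K4me3 does not read the deletion itself. The TSS windows of 11 oocyte genes, among them *Zp1*, *Zp2*, *Zp3*, *Bmp15* and *Nobox*, had a median of 6.56 normalized RPKM in WT and 4.93 in cKO, with every WT library above every cKO library at 6 and the cKO mean higher at 3, *Gdf9*, *Npm2* and *Figla*. The 3 blood markers had medians of 1.29 and 1.17. Most markers of the somatic cells of the follicle had a higher mean in cKO, without a test. The median over 8 granulosa cell markers was 4.14 in WT and 5.52 in cKO, with the cKO mean higher at 7 of 8 and every cKO library above every WT library at 5, and the summed level was 27.5 to 30.6 in WT and 35.9 to 38.4 in cKO. *Foxl2*, a factor of granulosa cell identity, had 6.39, 8.36 and 6.44 in cKO and 4.53, 3.86 and 4.26 in WT. At *Nr5a1*, a steroidogenic factor, every WT library was above every cKO library, with 3.11, 3.34 and 1.90 in cKO and 4.94, 3.37 and 3.90 in WT. Over 5 markers of theca and stroma the median was 3.20 in WT and 4.68 in cKO, with the cKO mean higher at 5 of 5 and no overlap of the libraries at 1, *Cyp17a1*, and the summed level was 13.9 to 15.9 in WT and 17.7 to 22.2 in cKO. Without *Cyp17a1* the medians were 3.05 and 3.28. Of all autosomal windows 10.8% had every cKO library above every WT library. The share for the reverse order is not given here, so nothing is read from the counts of marker windows without overlap. The part of somatic cells in the gain domains was not tested. Of the 27 marker windows that of *Inha* lay in a gain domain. As 0.575% of autosomal windows do, and *Bmp15* is on chromosome X, which the rule leaves out, nothing is read from the others.

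The sequence of the domains is shown by the most CpG-rich 300 bases, outside annotated UTRs, of 5 of them. They are the longest domain, the domain with the largest difference, a domain inside a gene body, the TSS domain with the widest separation of the libraries, and 1 from a *Hox* cluster. All are on the forward strand of GRCm38, with CpG dinucleotides in capitals. The *Itgb6* stretch (chr2:60693866-60694165) overlaps an exon of *Itgb6* and holds 15 CpGs. The *Nell2* stretch (chr15:95471430-95471729) is intronic and holds 10 CpGs, and the stretch on chromosome 8 (chr8:8895074-8895373) lies in no annotated gene and holds 15. The *Kazn* stretch (chr4:142243824-142244123) lies outside annotated genes, in the domain that holds the *Kazn* TSS, and has 11 CpGs. The *Hoxa* stretch (chr6:52211622-52211921), in introns of *Hoxa3* and of the antisense RNA *Hoxaas3*, holds 26 CpGs.
Itgb6: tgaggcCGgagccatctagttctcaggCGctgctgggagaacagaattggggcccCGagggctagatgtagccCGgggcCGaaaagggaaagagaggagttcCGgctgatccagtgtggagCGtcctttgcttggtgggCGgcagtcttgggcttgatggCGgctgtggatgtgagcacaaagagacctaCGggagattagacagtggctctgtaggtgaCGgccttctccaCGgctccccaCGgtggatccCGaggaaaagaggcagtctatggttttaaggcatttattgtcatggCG
Nell2: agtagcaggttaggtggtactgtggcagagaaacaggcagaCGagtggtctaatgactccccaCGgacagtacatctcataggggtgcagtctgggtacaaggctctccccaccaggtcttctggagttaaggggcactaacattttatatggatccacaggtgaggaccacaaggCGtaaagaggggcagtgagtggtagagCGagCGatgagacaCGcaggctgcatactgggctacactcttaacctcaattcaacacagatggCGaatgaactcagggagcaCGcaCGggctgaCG
Chromosome 8: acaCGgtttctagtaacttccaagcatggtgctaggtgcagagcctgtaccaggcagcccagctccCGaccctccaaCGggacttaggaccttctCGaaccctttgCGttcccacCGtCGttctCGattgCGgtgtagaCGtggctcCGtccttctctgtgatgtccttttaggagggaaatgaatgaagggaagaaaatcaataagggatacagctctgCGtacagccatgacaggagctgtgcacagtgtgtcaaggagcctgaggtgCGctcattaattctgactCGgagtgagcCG
Kazn: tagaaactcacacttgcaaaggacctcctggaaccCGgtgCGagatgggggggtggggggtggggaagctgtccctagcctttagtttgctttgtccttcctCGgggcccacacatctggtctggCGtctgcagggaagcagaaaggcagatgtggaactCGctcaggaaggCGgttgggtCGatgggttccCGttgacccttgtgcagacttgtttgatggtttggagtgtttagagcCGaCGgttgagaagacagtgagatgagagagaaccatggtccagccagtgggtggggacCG
Hoxa: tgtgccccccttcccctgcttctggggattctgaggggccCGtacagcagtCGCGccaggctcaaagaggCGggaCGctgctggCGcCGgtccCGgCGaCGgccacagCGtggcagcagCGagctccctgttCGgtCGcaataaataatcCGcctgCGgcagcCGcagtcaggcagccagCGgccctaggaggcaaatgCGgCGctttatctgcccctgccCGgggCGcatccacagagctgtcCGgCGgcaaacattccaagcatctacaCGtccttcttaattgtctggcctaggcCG
The *Itgb6* and chromosome 8 stretches had more CpGs than the best 300 bases of 90.1% of autosomal windows, and the *Hoxa* stretch more than those of 97.2%. For *Nell2* and *Kazn* these shares were 71.5% and 77.6%. The shares set a stretch outside UTRs against the best 300 bases of windows with UTRs included, and so understate domains with a rich UTR or promoter: the best 300 bases of the whole *Kazn* domain hold 54 CpGs. In the windows that hold the stretches the cKO means ranged from 3.23 (*Itgb6*) to 7.58 (*Hoxa*) normalized RPKM and the WT means from 1.40 (chromosome 8) to 4.48 (*Hoxa*).

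The typical gain domain was a place of middling H3K4me3 in WT that stood high in cKO. Over the 751 domains the median of the cKO mean was 4.32 normalized RPKM and that of the WT mean 2.12, and the median difference was 2.09, with a range of 1.08 to 3.71. These values describe the choice of the domains and were not tested. The median window of a gain domain stood at the 61.6th percentile of autosomal windows in WT and at the 89.0th percentile in cKO. By library, the cKO medians over domains were 4.11, 4.68 and 4.18 normalized RPKM, and the WT medians were 2.07, 2.05 and 2.28. The cKO library closest to WT was replicate 1 in 418 domains, and the WT library closest to cKO was replicate 4 in 412. The WT mean was below 1.5 in 139 domains and above 4 in 14, so few domains were already strongly marked in WT.

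**Figure D1:**
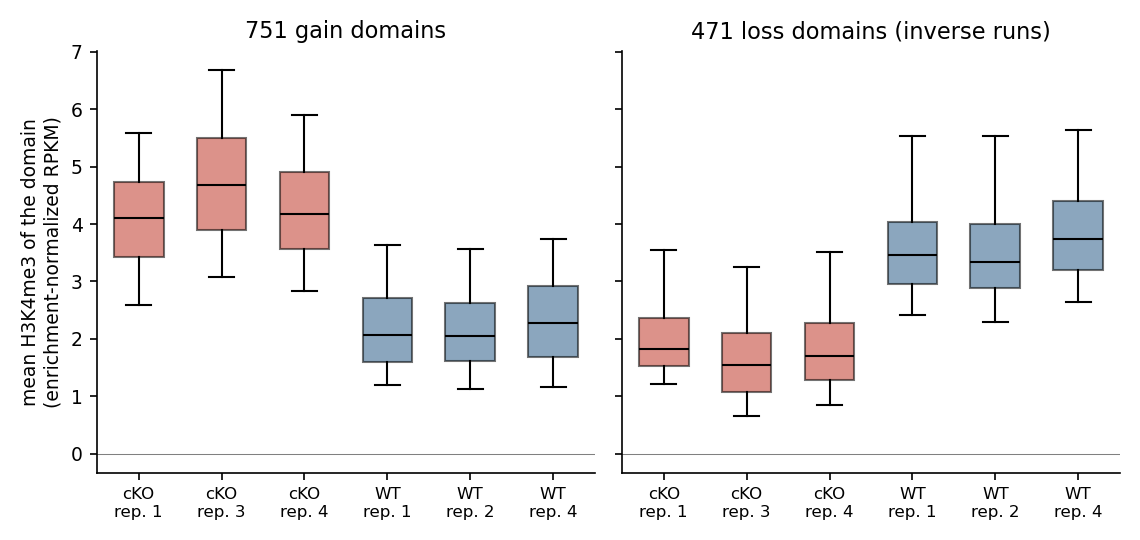
Mean H3K4me3 of each domain (vertical axis, enrichment-normalized RPKM) in the 3 cKO and 3 WT libraries, for the 751 gain domains and the 471 loss domains. Boxes span the quartiles with the median as a line, and whiskers reach from the 5th to the 95th percentile of domains. In the gain domains the medians were 4.11 to 4.68 in cKO and 2.05 to 2.28 in WT, which is what the domains were chosen for.

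The normalization shifts each library by its own amount, so the domains were also read in the reads themselves. Each value was a whole number of read steps, and the median domain was covered by 207, 148 and 355 reads in the cKO libraries and by 86, 77 and 231 in the WT libraries. In reads scaled to library size (RPM) the median domain was 1.97-fold higher in cKO (range 1.17 to 5.40). The 3 cKO libraries were all above the 3 WT libraries in 718 of the 751 domains (95.6%), against 7.71% of single autosomal windows, and overlapped in 33. RPM is a linear rescaling of the values the rule used, so this separation is largely fixed by the choice of the domains, and nothing is read from that count. A run rule on RPM, in which the lowest cKO library had to be at least 1.2 times the highest WT library, gave 710 runs in gain and 647 in loss. Of the gain domains 388 (51.7%) shared a window with these runs, and 386 of the runs (54.4%) shared a window with a gain domain. Membership therefore depended on the scale and on the form of the threshold, a difference or a ratio, which changed together here, and the cKO mean in RPM was higher in all 751 domains.

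Most domains were short. Of the 751, 440 had 3 windows, 185 had 4, 60 had 5 and 66 had 6 or more, with 12 windows at most. By the limma test over all 544879 windows (adjusted p under 0.05), 1033 of the 2829 windows of gain domains (36.5%) were called as gains, against 0.563% of all windows. As the test used the same libraries and contrast as the rule, nothing is read from that count. The limma calls were themselves unstable. No window at all was called on the scale log2(value + 1), although 73232 windows had an unadjusted p under 0.05 there, and none or 1 was called without cKO replicate 4 or without any 1 of the WT libraries. The 3 domains nearest above the threshold lay in *Atrnl1*, *Igf2bp1* and *Tmem189*, each with a smallest window gap of 0.5003 to 0.5005 normalized RPKM. The 3 runs nearest below it had a gap of 0.4991, and 2 of these lay over *Erg* and *Fig4*. In all, 243 runs reached a gap of 0.4 but not 0.5.

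The longest gain domain, of 12 windows, covered the 5′ end of *Itgb6* and the sequence before it (chr2:60690001-60750000). The gene encodes the beta subunit of the epithelial integrin that activates TGF-beta. The cKO libraries had 3.49, 4.40 and 3.73 normalized RPKM over it, and the WT libraries 1.32, 1.26 and 1.11. It held the *Itgb6* TSS and no CpG island, and in RPM it was 3.73-fold higher in cKO. Its highest window had 6.33, 8.36 and 7.45 in cKO and 2.22, 2.10 and 2.07 in WT. The other domain of 12 windows (chr8:8480001-8540000) held the TSSs of the non-coding genes *Gm31135* and *D530014G21Rik*, and had 4.42, 4.97 and 4.29 in cKO and 2.05, 2.03 and 2.05 in WT. The WT libraries were nearly equal there, and all cKO libraries were more than 2 units higher. A domain of 10 windows inside *Sntb1* (chr15:55820001-55870000), which encodes a syntrophin of the dystrophin complex, had 4.64, 4.73 and 4.12 in cKO and 2.06, 2.15 and 2.31 in WT. Others among the 10 longest spanned *B4galnt4*, *Pkp3* and *Sigirr* with 9 windows and 5 CpG island windows, the TSS of *Anxa11*, and the sterol synthesis gene *Hmgcs1* with *Nim1k*. Domains of 9 or more windows numbered 9, and the last place among the 10 longest went, by its difference, to 1 of 12 domains tied at 8 windows. Of the 10 longest, 2 had no annotated gene at all.

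The largest difference, 3.71 normalized RPKM, was found in a domain of 3 windows on chromosome 8 (chr8:8885001-8900000) that overlaps no annotated gene. It had 5.35, 5.45 and 4.60 in the cKO libraries and 1.35, 1.52 and 1.41 in the WT libraries. *Nell2*, which encodes a secreted glycoprotein of neural tissue, held a domain of 8 windows in its gene body (chr15:95465001-95505000) with 4.59, 4.74 and 4.68 in cKO and 1.26, 1.27 and 1.45 in WT. This domain was 1 of the 12 of 8 windows and among the 10 with the largest difference, and it was 4.20-fold higher in RPM. *Lrp8*, a receptor for reelin, had 6.14, 7.70 and 6.57 in cKO and 3.01, 3.34 and 3.19 in WT over 4 windows of its gene body. The domain in *Ptpn5*, a tyrosine phosphatase of neurons, had 5.76, 4.84 and 5.67 against 1.79, 1.81 and 2.19. The cKO and WT libraries of these domains lay far apart, as the rule demands. The domains over *Zg16* and *Fam49b* had differences of 3.43 and 3.35, and an intergenic domain of chromosome 9 (chr9:35400001-35415000) had 3.29.

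Among the domains that held a protein-coding TSS, the 10 with the widest mean separation of the libraries held the TSSs of *Kazn*, *Igf1*, *Fam83g*, *Chpf2*, *Dbx2*, *Grhl3*, *Pitx1*, *Spata20* with *Epn3*, *2010111I01Rik* and *Cd180*. *Igf1*, the growth factor (chr10:87850001-87865000), had 5.07, 4.57 and 4.72 normalized RPKM in cKO and 1.56, 1.88 and 1.49 in WT. *Kazn*, which encodes a protein of the cornified envelope and desmosomes (chr4:142235001-142250000), had 4.98, 5.81 and 5.17 in cKO and 1.96, 1.84 and 1.93 in WT. *Pitx1*, a homeodomain factor of hindlimb identity, had 4.16, 3.98 and 3.94 in cKO and 1.27, 1.36 and 1.19 in WT over 6 windows (chr13:55820001-55850000), 3 of them with a CpG island. *Grhl3*, a regulator of the epidermal barrier, had 5.61, 6.15 and 6.03 in cKO and 2.69, 3.05 and 2.71 in WT. The homeobox gene *Dbx2* had 4.81, 5.41 and 4.57 in cKO and 1.86, 2.202 and 1.60 in WT. *Cd180*, a surface protein of B cells, had 4.41, 5.28 and 4.22 against 1.86, 1.39 and 2.03, without a CpG island.

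Some gain domains lay close together. Of neighbouring pairs on a chromosome, 177 were separated by 100 kb or less and 36 by 5 kb or less, and the median distance was 825 kb. For the loss domains, which are fewer, 60 pairs were within 100 kb and the median distance was 2105 kb. The densest group had 8 domains with 49 windows in 405 kb over *Pla2r1*, *Itgb6* and *Rbms1* (chr2:60510001-60915000). Over this whole span the cKO libraries averaged 3.51, 3.80 and 3.42 normalized RPKM and the WT libraries 1.67, 1.53 and 1.61. In the 32 windows between the domains they averaged 2.2045, 2.46 and 1.99 in cKO and 1.34, 1.19 and 1.27 in WT, and every cKO library was above every WT library in 18 of the 32. Over *Nell2* and *Dbx2* (chr15:95330001-95695000) 7 domains stood in 365 kb, and the 42 windows between them averaged 2.54, 2.41 and 2.33 in cKO and 1.56, 1.56 and 1.66 in WT, with no overlap of the libraries in 20. Another 7 stood in 340 kb of *B3galt1* (chr2:67730001-68070000), a galactosyltransferase gene, and the 40 windows between them averaged 1.77, 1.74 and 1.57 in cKO and 1.05, 0.813 and 0.815 in WT, with no overlap in 23. Of all autosomal windows 10.8% had every cKO library above every WT library. The averages between the domains thus lay higher in cKO, while the libraries overlapped in many single windows there. Taking the gene as the unit, *B3galt1* carried 8 domains, *Adamtsl1* 7, and *Ank2* and *Sox5* 5 each.

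**Figure D2:**
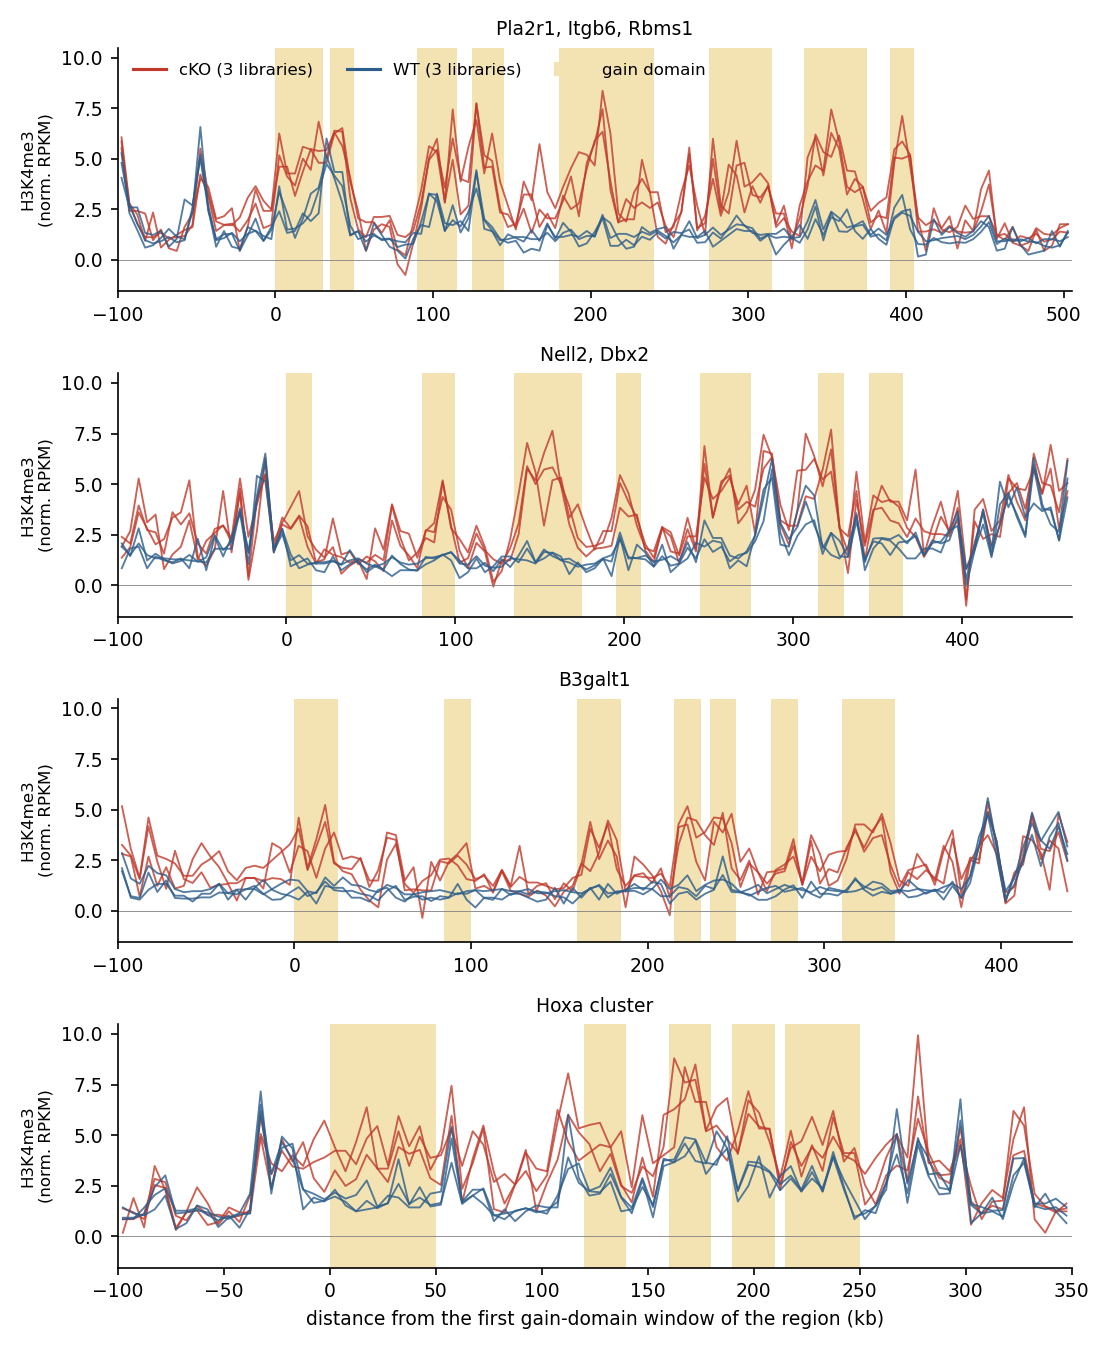
H3K4me3 per 5 kb window (vertical axis, enrichment-normalized RPKM) along 4 groups of gain domains, against the distance in kb from the first window of the group, with 3 cKO libraries in red, 3 WT libraries in blue and the gain domains shaded. Inside the shaded domains the cKO lines lie above the WT lines, which reach a mean of 4.48 in the *Hoxa* group, and between the domains the lines of the genotypes often overlap. Over the *Itgb6* group the cKO libraries averaged 3.42 to 3.80 and the WT libraries 1.53 to 1.67.

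The difference did not stop at the edges of the domains. The flanks were read in windows that lie in no gain domain, since 177 pairs of domains stand within the flanks of each other. In the window next to a domain the cKO mean was 3.34 normalized RPKM on the left and 3.35 on the right, and the WT means were 2.45 and 2.49. At 100 kb the cKO means were still 2.84 and 2.91 and the WT means 2.39 and 2.53. Over all autosomal windows, those without known sequence included, the mean difference cKO minus WT was −0.029. Over windows with at least 2500 known bases the cKO libraries averaged 2.195, 2.116 and 2.096 and the WT libraries 2.159, 2.048 and 2.233. Inside the domains the WT mean was 2.22, below that of the flanks, and the rule itself favours windows with a low WT value. At every distance shown all cKO libraries were above all WT libraries in these means, and cKO replicate 3 was the highest of the 6. In single windows at 100 kb every cKO library was above every WT library in 24.97% on the left and 22.5% on the right. Of all autosomal windows this held in 10.8%. The flanks were also richer in CpGs. With windows of other gain domains included, log2 of the CpG frequency over that of the genome had medians of 0.32 and 0.35 at 100 kb, against −0.18 in autosomal windows. The part of CpG content in the flank difference was not tested.

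**Figure D3:**
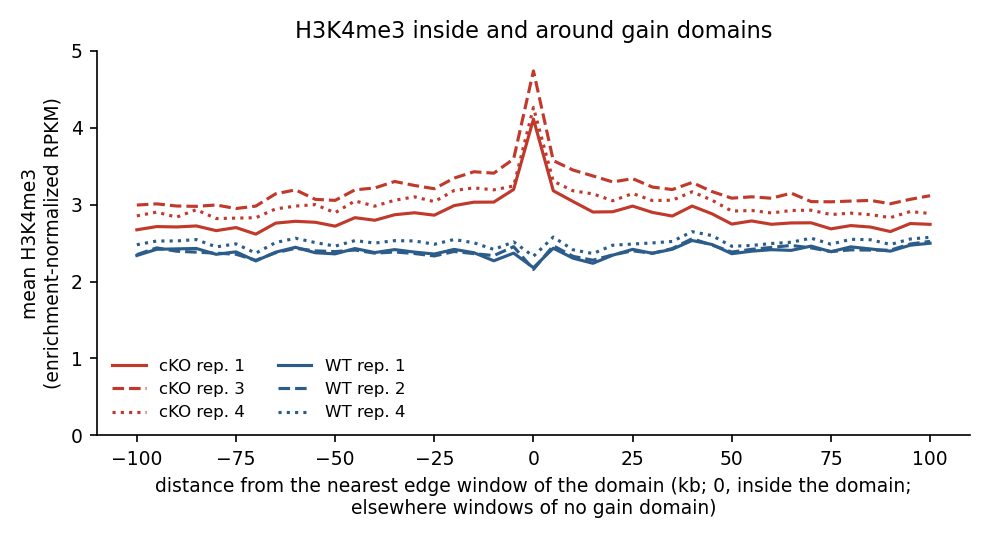
Mean H3K4me3 of the 6 libraries (vertical axis, enrichment-normalized RPKM) inside the gain domains (0) and in windows of no gain domain up to 100 kb to either side (horizontal axis, kb). cKO libraries are red and WT libraries blue. The cKO mean falls from 4.37 inside to 2.84 and 2.91 at 100 kb, while the WT mean goes from 2.22 to 2.39 and 2.53.

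Position and sequence were not used by the rule. Gain domains lay mainly in genes, and most held no TSS. Of the 751 domains, 159 held the TSS of a protein-coding gene, 121 held a TSS of other genes only, 360 overlapped a gene without a TSS, and 111 were intergenic. A TSS of any kind was held by 37.3% of gain domains and 24.2% of loss domains. By window, 12.7% of the windows of gain domains held a TSS against 9.32% of autosomal windows, and 6.36% against 4.01% held that of a protein-coding gene. Of the window bases 70.5% were genic in gain domains, 27.7% in loss domains and 48.4% in all autosomal windows. Of the domains 352 lay wholly inside a protein-coding gene, and 284 of these held no TSS of any kind and lay inside 1 such gene only. The genes that held these 284 had a median length of 170 kb, the domains lay a median of 62.5 kb from the TSS, and 92, 112 and 80 of them fell in the 5′, middle and 3′ part of the gene, cut into 3 equal parts. Domains with a protein-coding TSS were the more strongly marked in both genotypes, with medians of 4.83 in cKO and 2.68 in WT, and intergenic domains the least, with 4.06 and 1.98. The median difference varied little by position, at 2.15, 2.07, 2.08 and 2.02 normalized RPKM over the 4 classes in the order above.

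Gain domains were rich in CpGs. The median gain window held 59 CpGs, the median loss window 27 and the median autosomal window 36, and log2 of the CpG frequency over that of the genome was 0.53, −0.59 and −0.18. Gain windows without a TSS had a median of 0.48. A CpG island (at least 500 bp, GC of at least 55%, observed over expected CpG of at least 0.65) was found in 9.72% of the windows of gain domains, against 1.69% for loss domains and 4.51% of autosomal windows. From the lowest to the highest decile of autosomal windows by CpG content, the share in gain domains went from 0.0104% to 1.65%, and the share in loss domains from 0.545% to 0.142%. The shares rose in every step for gain domains. Interspersed repeats and low-complexity sequence took up 21.0% of the bases of gain domains, 36.3% for loss domains and 33.5% of autosomal windows. Across the 751 gain domains the CpG density had a Spearman correlation of 0.26 with the difference and 0.46 with the WT mean, as a description over domains that share the libraries. It was 0.016 with the difference in RPM, and it was negative with ratios of cKO to WT, at −0.27 in normalized RPKM and −0.36 in RPM. The sign thus turned between differences and ratios. Even so, 417 domains (55.5%) had neither a TSS nor a CpG island.

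**Figure D4:**
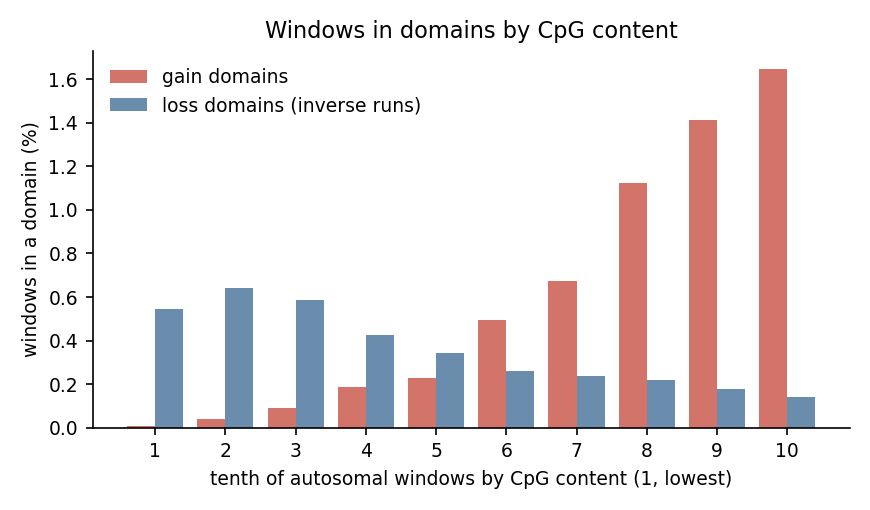
Share of autosomal windows that lie in gain domains (red) and loss domains (blue), as a percent on the vertical axis, by decile of CpG content on the horizontal axis from the lowest (1) to the highest (10). Gain rises from 0.0104% to 1.65%, and loss goes from 0.545% to 0.142%.

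The domains were uneven between chromosomes. Chromosome 19 had 2.77 gain domains per 1000 windows, chromosome 4 had 2.53 and chromosome 11 had 2.46, and the lowest densities were 0.666 on chromosome 1 and 0.681 on chromosome 14. Over the 19 autosomes the density had a Spearman correlation of 0.51 with the median CpG count per window for gain domains and −0.43 for loss domains, which is given as a description.

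The genes under gain domains were counted against all 20780 protein-coding autosomal genes, of which 540 (2.60%) overlapped a gain domain. Longer genes were more often hit, at 1.03% below 10 kb and 8.02% above 100 kb. Of 195 developmental transcription factors 27 (13.8%) overlapped a gain domain, 15 of them with their TSS, although their median length was 7.02 kb. The 27 genes lie in fewer separate places. Among them are 7 genes of the *Hoxd* cluster, and *Hoxa3*, *Hoxa6*, *Hoxa7*, *Hoxa9*, *Hoxa10*, *Hoxa11* and *Hoxa13* of the *Hoxa* cluster. *Dlx3* and *Dlx4* share 1 domain. No loss domain overlapped this list, and 129 of all protein-coding genes (0.621%) overlapped one. In the *Hoxa* cluster, homeobox genes of body patterning, 4 domains covered *Hox* genes (chr6:52165001-52295000), and the domain over *Hoxa6* to *Hoxa9* had 6.69, 6.51 and 7.33 normalized RPKM in cKO and 4.28, 3.86 and 3.89 in WT. In the *Hoxd* cluster 4 domains covered 7 genes, and that of *Hoxd8*, *Hoxd9* and *Hoxd10* had 4.94, 5.23 and 5.20 against 2.94, 2.49 and 3.31. *Gata2*, a factor of blood and endothelial cells, had 5.02, 6.11 and 5.69 in cKO and 3.42, 3.14 and 3.32 in WT over 6 windows with its TSS. At each of these *Hox* genes and at *Gata2* the WT libraries were above the autosomal median of 1.56.

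Signalling lists followed. Of 69 axon guidance genes 10 (14.5%) overlapped a gain domain, 2 with their TSS. These are long genes, with a median of 69.0 kb, and of all genes of 30 to 100 kb 3.43% overlapped a gain domain. Among the 10, *Slit3*, *Epha6*, *Dcc*, *Ephb2*, *Sema6a* and *Sema5b* are above 100 kb, where the share was 8.02%. *Slit3*, a secreted guidance ligand, carried 3 domains, the longest with 3.97, 4.49 and 3.58 in cKO and 1.94, 1.86 and 2.27 in WT. The receptor gene *Plxnd1* had 5.69, 6.48 and 6.22 in cKO and 3.45, 2.54 and 3.81 in WT. Wnt ligands and Frizzled receptors numbered 3 of 34 (*Wnt7a*, *Wnt11* and *Fzd2*), and voltage-gated channels and neurotransmitter receptors 10 of 216 (4.63%, median length 42.6 kb), with 2 over a loss domain. Integrins, collagens and laminins numbered 4 of 83, with 2 over a loss domain, and cadherins and protocadherins 1 of 98, *Cdh4*.

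Genes of the chromatin machinery were hit in a few places. Over all protein-coding autosomal genes the share was 2.60%, and nothing is read from the counts in the short lists of this paragraph. *Dnmt3a*, the *de novo* DNA methyltransferase, carried 2 domains in its gene body, and the longer one (chr12:3835001-3860000) had 4.97, 5.30 and 4.62 in cKO and 1.86, 1.40 and 1.95 in WT. *Tet1*, which oxidizes 5-methylcytosine, carried 3, and the one with its TSS had 4.35, 5.85 and 4.49 against 2.68, 2.30 and 2.56. These were 2 of 17 genes of the DNA methylation machinery. Of 16 genes of the H3K4 methyltransferase complexes *Kmt2a* overlapped gain domains, with 5.99, 5.72 and 5.91 in cKO and 3.62, 3.56 and 3.88 in WT at its TSS, and *Setd1b* overlapped a loss domain. Of 31 Polycomb genes *Phc2* overlapped a gain domain, with a difference of 3.15. None of 30 oocyte genes, 32 imprinted genes, 7 H3K36 methyltransferase genes and 1411 olfactory and vomeronasal receptor genes overlapped a gain domain. The receptor genes are short, with a median of 6.33 kb, and of all genes below 10 kb 1.03% overlapped a gain domain. Of the receptor genes 18 (1.28%) overlapped a loss domain, against 0.621% of all protein-coding genes. Of 16 markers of granulosa cells, stroma and blood, *Inha* overlapped a domain, with 5.33, 5.51 and 5.35 in cKO and 2.54, 3.16 and 2.61 in WT.

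Input coverage over the gain domains differed between the genotypes by less than the spread of the libraries. The mean input over the 2829 windows was 2.27 and 2.15 RPM per window in the cKO inputs and 2.26 and 2.14 in the WT inputs. Over all autosomal windows with known sequence it was 2.02 in each of these libraries, so gain domains had higher input in both genotypes. The difference was 0.00779 (exact permutation test, two-sided, p = 0.667, n = 2 per genotype), and 0.3333 is the smallest p that this design allows. Replicate 1 was above replicate 4 in both genotypes, and the unpaired test does not use the shared numbers. Gain domains were exceptional in 4 cases. Over a domain and 100 kb to either side, both cKO inputs were at least 1.2 times both WT inputs around 4 domains (0.533%), against 0.0461% of autosomal windows, and the reverse was found around none. At *Mfhas1* (chr8:35670001-35685000) the input was 3.41 and 2.91 in cKO and 2.43 and 2.02 in WT, and another domain nearby (chr8:35730001-35745000) had 3.36 and 3.54 against 2.17 and 1.94. Both lay in a stretch of 225 kb (chr8:35600001-35825000) with a mean input of 3.43 and 3.24 in cKO and 2.30 and 2.06 in WT. The other 2 lay in and beside *Tcerg1l*, in a stretch of 390 kb (chr7:138085001-138475000) with 2.27 and 2.10 in cKO and 1.49 and 1.62 in WT. Their H3K4me3 differences were 2.59 and 2.87 normalized RPKM on chromosome 8 and 2.30 and 1.42 on chromosome 7. The part of input in the H3K4me3 difference of these 4 domains was not tested. Around the other 747 domains the ratio of the mean inputs ranged from 0.908 to 1.12.

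**Figure D5:**
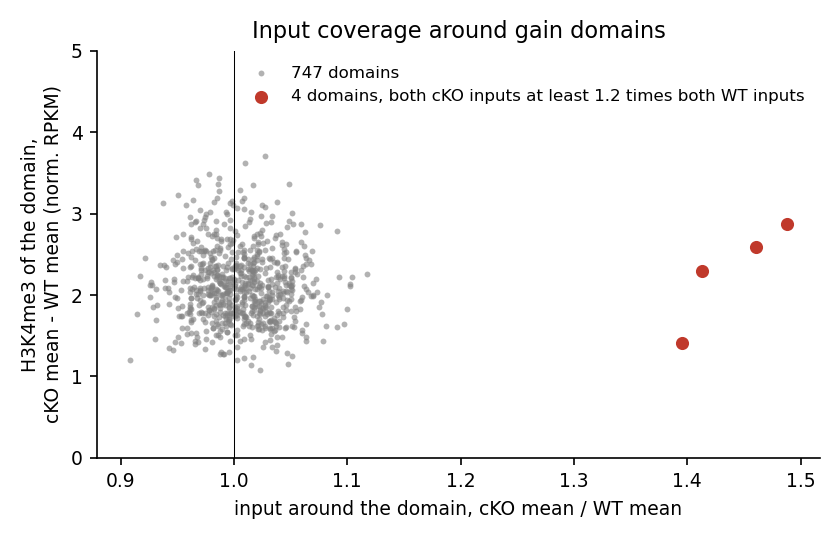
Ratio of the mean cKO input to the mean WT input over each gain domain and 100 kb to either side (horizontal axis) against the H3K4me3 difference of the domain (vertical axis, enrichment-normalized RPKM). Each point is a domain. The 4 red points, at *Mfhas1* and *Tcerg1l*, have ratios of 1.39 to 1.49, and the other 747 lie between 0.908 and 1.12.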

How the data were processed

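ULI-nChIP-seq reads were trimmed with Trim Galore 0.4.2 and mapped with Bowtie2 2.2.9 to GRCm38 by the authors, per the submitters' processing notes, and quantified in 5 kb windows. The H3K4me3 values, as deposited, are a score (enrichment-normalized RPKM), and the deposited input values are a signal, reads per window scaled to library size. Gain domains were found on the deposited values. Reads were recovered from the value steps (within 0.1 reads, 100% of values). The test over all windows used limma 3.58.1 (R; no trend, Benjamini-Hochberg), checked on simulated data. The replicates are separate pools of oocytes. Genes came from GENCODE M21. CpG content is the log2 ratio of a window's CpG frequency to the genome's, adding 0.5 to its count, for windows with at least 2500 known bases. Named domains were the 10 longest, the 10 with the largest difference, the 10 with the widest mean separation among those with a protein-coding TSS, the 3 nearest the threshold and those over listed genes. The result of 1 gene list is not reported here. The members and gene lists were chosen with earlier results of these data known. Libraries of replicate 2 of cKO and replicate 3 of WT were not analysed here. The alternatives were other gaps, run lengths, scales and filters, a replicate block and leaving out each library, and the input criterion was chosen after seeing the data.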

Additional observations from a re-analysis of the deposited data

Results flagged for a closer look

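Chromosome X, which the domain rule leaves out, held 141 runs of 3 or more windows (521 windows) in which every WT library exceeded every cKO library by 0.5 normalized RPKM, against 3 runs (9 windows) in gain. It drew attention because it lies outside the data used for the domains. The share of H3K4me3 reads on chromosome X, among reads on it and the autosomes, was 4.60%, 4.59% and 4.36% in cKO replicates 1, 3 and 4 and 5.64%, 5.48% and 5.72% in WT replicates 1, 2 and 4. The difference of −1.09 percentage points had the smallest p that 3 libraries against 3 allow (exact permutation test, two-sided, p = 0.1). It was noticed in the same 6 libraries through runs in which they do not overlap, so the test adds no independent evidence. The input libraries had 5.44% and 5.72% in cKO and 5.48% and 5.82% in WT. The cause was not tested.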

How the results depend on the processing

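The number of gain domains followed the threshold. It was 1500 with a gap of at least 0.25 and 178 with a gap of at least 1, 2258 with runs of 2 or more windows and 311 with 4 or more, and 1511 where a missing window was allowed inside a run. The loss domains were 1212, 64, 1873 and 167 under the same gaps and run lengths. Leaving out a library relaxes the rule, and the gain domains then ranged from 924 to 2117 and the loss domains from 586 to 2504. The highest gain count was without cKO replicate 1, where loss domains (2504) outnumbered gain domains (2117), as they also did without WT replicate 2 (1570 against 1122). The count was 768 on quantile-normalized values, 710 on RPM, 754 with chromosome X and 747 without the 4 domains of high cKO input. The median difference was 2.57 with a gap of at least 1. A TSS was held by 43.4% of domains when 2000 bp around the domain were counted and by 21.2% for protein-coding genes only. The observed over expected CpG ratio, another measure of CpG content, had a median of 0.226.

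Windows called by limma, 5539 in all, were 19492 with an intensity trend, 0 on log2(value + 1), 1 on quantile-normalized values, and from 0 to 17979 without 1 library. Calls among gain-domain windows were 1927 with the trend, 0 on log2(value + 1) with 2726 at an unadjusted p under 0.05, and from 0 to 1681 without 1 library. With the replicate block the calls were 33433 in all and 2088 in gain domains, but only 1 residual degree of freedom was left, and the labels give no pairing beyond the shared numbers 1 and 4. Deviations from the group mean correlated at 0.32 between the replicates numbered 1 and at 0.019 between those numbered 4. The causes were not tested. The depth of 77 to 355 reads per median domain limits the values of single domains in the shallower libraries.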

Other observations

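The TSS window of *Gdf9*, whose promoter also drives the Cre transgene of the cKO, was in no gain domain but was high in cKO. It had 9.99, 12.6 and 9.52 normalized RPKM in the cKO libraries and 7.30, 7.94 and 7.13 in the WT libraries. Its input was 3.42 and 3.00 RPM in cKO and 2.17 and 1.85 in WT, and in the adjacent windows the inputs of the genotypes overlapped. The part of the transgene in this window was not tested.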
